A study of Mus musculus with 4 samples.

Results

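The nuclei described here are those that the deposited annotation of the authors labels Endothelial Cell, in single-nucleus RNA sequencing of the mouse superior colliculus, a midbrain structure that receives visual input. They were chosen by that label alone, over all stages, and number 62 of 9724 nuclei. The other 9662 nuclei belong to 8 other classes, of excitatory and inhibitory neurons, astrocytes, oligodendrocyte-lineage cells, vascular leptomeningeal cells, microglia, dividing cells and epithelial cells. All animals were C57BL/6J mice with no other allele or treatment in the labels, taken at embryonic day 19 (E19) or postnatal day 4, 8 or 21 (P4, P8, P21). Each stage is 1 library made from the pooled tissue of several animals, so no difference between stages or sets of nuclei has a replicate check, and no test was made and no p-value computed. In the order E19, P4, P8, P21 the class supplied 13, 22, 15 and 12 nuclei, with 110964, 229096, 194149 and 73762 UMIs (unique molecular identifiers, each standing for 1 captured RNA molecule).

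Endothelial cells line the inside of every blood vessel. In the brain their tight junctions, low rate of vesicle transport and dense set of nutrient carriers and efflux pumps form the blood-brain barrier, which is induced by Wnt signals from neural cells. Pericytes are mural cells that lie on the outer face of the same capillaries, inside a shared basement membrane, and are recruited by platelet-derived growth factor from the endothelium.

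Both genes given as markers for the class were among its highest. Cldn5, the main claudin of brain endothelial tight junctions, lies on chromosome 16 (18776847 to 18778262, + strand, GRCm38), and Flt1, a receptor for vascular endothelial growth factor (VEGF), on chromosome 5 (147561604 to 147726011, - strand). Rgs5, a regulator of G protein signalling used as a pericyte marker, lies on chromosome 1 (169655501 to 169695813, + strand). The 250 bases before the RefSeq start of these 3 genes (GRCm38.p6) are shown because the class divides by the levels of these genes, as described below. Each reads 5′ to 3′ on the strand of its gene, and capitals mark AGGAAG or its reverse complement, a core sequence bound by ETS factors, of which Erg, Fli1 and Ets1 led the class.
Cldn5, chr16:18776597-18776846, + strand: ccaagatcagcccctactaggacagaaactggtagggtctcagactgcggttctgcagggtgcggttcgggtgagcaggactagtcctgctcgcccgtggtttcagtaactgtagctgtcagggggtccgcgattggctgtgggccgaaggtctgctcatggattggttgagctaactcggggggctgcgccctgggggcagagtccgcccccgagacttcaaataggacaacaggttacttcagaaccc
Flt1, chr5:147726012-147726261, - strand: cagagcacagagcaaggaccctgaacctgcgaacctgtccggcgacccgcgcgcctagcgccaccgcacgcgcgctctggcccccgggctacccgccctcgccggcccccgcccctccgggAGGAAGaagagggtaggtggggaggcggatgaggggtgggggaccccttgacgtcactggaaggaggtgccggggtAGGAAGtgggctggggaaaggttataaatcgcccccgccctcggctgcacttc
Rgs5, chr1:169655251-169655500, + strand: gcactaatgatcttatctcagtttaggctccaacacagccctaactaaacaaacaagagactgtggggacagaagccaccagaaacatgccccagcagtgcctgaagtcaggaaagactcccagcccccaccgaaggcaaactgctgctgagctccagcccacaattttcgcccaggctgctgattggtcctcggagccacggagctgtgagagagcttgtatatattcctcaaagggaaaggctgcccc
The Flt1 window held 2 copies, 129 and 53 bases upstream of the start, and the Cldn5 and Rgs5 windows held none. Of the 25 leading genes named below, 17 had a RefSeq window, and 9 of their 22 windows (40.9%) held AGGAAG on either strand, beside 29.5% of all 32851 windows of the same length. The shares were 33.3% of 12 windows and 38.5% of 13 windows for the genes named below as highest in nuclei with endothelial and with pericyte markers. The letters ATCAAAG, a TCF/LEF core sequence, stood in 1 of the 22 windows and in 3.21% of all windows. The 2 sequences do not overlap each other, and a match describes letters only.

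The 62 nuclei did not carry one set of vascular markers. A list of 10 endothelial markers (Flt1, Cldn5, Pecam1, Cdh5, Tek, Tie1, Kdr, Ptprb, Erg and Adgrl4) and a list of 10 pericyte markers (Pdgfrb, Rgs5, Kcnj8, Abcc9, Cspg4, Anpep, Notch3, Vtn, Higd1b and Atp13a5) were counted in each nucleus. With at least 3 detected markers as the criterion, set after the values were seen, 16 nuclei held endothelial markers only, 23 held pericyte markers only and 23 held both. The annotation therefore covers nuclei of both marker programs, and the authors' clustering had placed all 62 in a single cluster. The 3 sets are called endothelial-marker, pericyte-marker and double-marker nuclei below. The separation was wide for endothelial-marker nuclei, which held 7 or more of the 10 endothelial markers. Of these 16 nuclei, 15 held at most 1 pericyte marker. Pericyte-marker nuclei were less uniform, the lowest numbers of pericyte markers being 3 and 4. That each single-program set held at most 2 markers of the other list follows from the criterion. Only 6 nuclei lay near a boundary, with 2 or 3 markers of a list. When the criterion was 0.2% of the UMIs of a nucleus in place of 3 markers, 56 of 62 nuclei kept their set. These were all 16 endothelial-marker, 22 of 23 pericyte-marker and 18 of 23 double-marker nuclei, so the double-marker set was the least stable.

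The sets are described by the UMIs of the same markers, which divide as they do by construction. The 10 endothelial markers took a median of 0.883% of the UMIs of endothelial-marker nuclei, 0.0231% in pericyte-marker nuclei and 1.13% in double-marker nuclei. For the 10 pericyte markers the medians were 0%, 1.07% and 0.381%. Summed over the class, the endothelial list stood at 9867 CPM (counts per 1000000 UMIs) and the pericyte list at 4513 CPM, against 32.4 and 72.7 CPM in all other nuclei. No defining marker of either list was at 0 in the class, the lowest being Higd1b at 39.5 CPM. The scatter of marker percentages shows arms along both axes and a cloud between them.

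**Figure D1:**
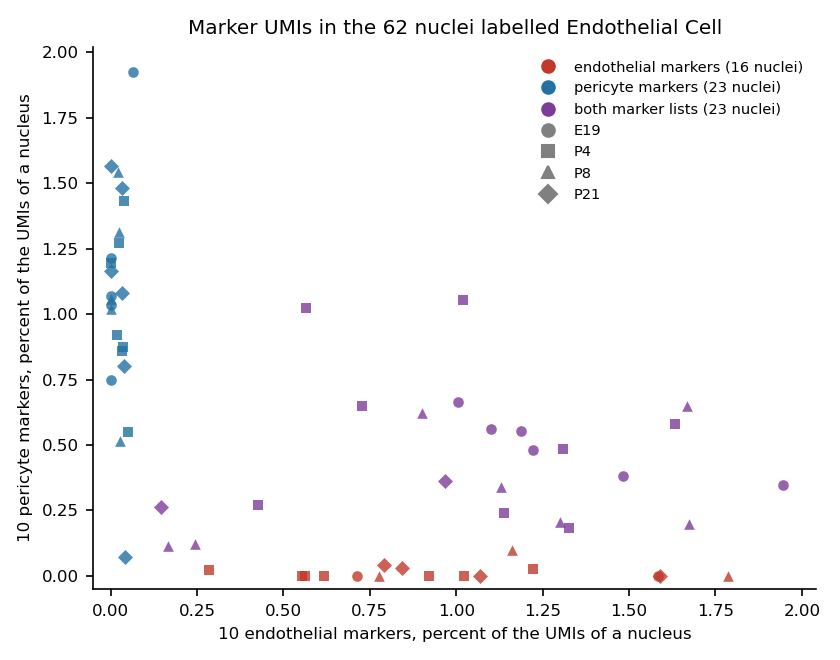
Percent of the UMIs of each of the 62 nuclei that came from 10 endothelial markers (horizontal) and 10 pericyte markers (vertical), 1 point per nucleus, coloured by marker set and shaped by stage. The 16 endothelial-marker nuclei lie along the horizontal axis, the 23 pericyte-marker nuclei along the vertical axis, and the 23 double-marker nuclei in between; colours follow the criterion of at least 3 detected markers.

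Depth moved with the sets. Endothelial-marker nuclei had a median of 3825 UMIs (2401 to 9455) and pericyte-marker nuclei 3900 (2497 to 8121). Double-marker nuclei had a median of 15132 UMIs (3426 to 47868), included all 16 of the deepest nuclei, and supplied 72.2% of the UMIs of the class. A level summed over the class is for that reason mainly a level in double-marker nuclei. How far depth, or more than 1 nucleus under a barcode, accounts for the double-marker set was not tested. How doublets were handled upstream is not given in the sources used here, and no doublet caller was run. No barcode of the class occurred in more than 1 library (9 barcodes of all nuclei did).

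**Figure D2:**
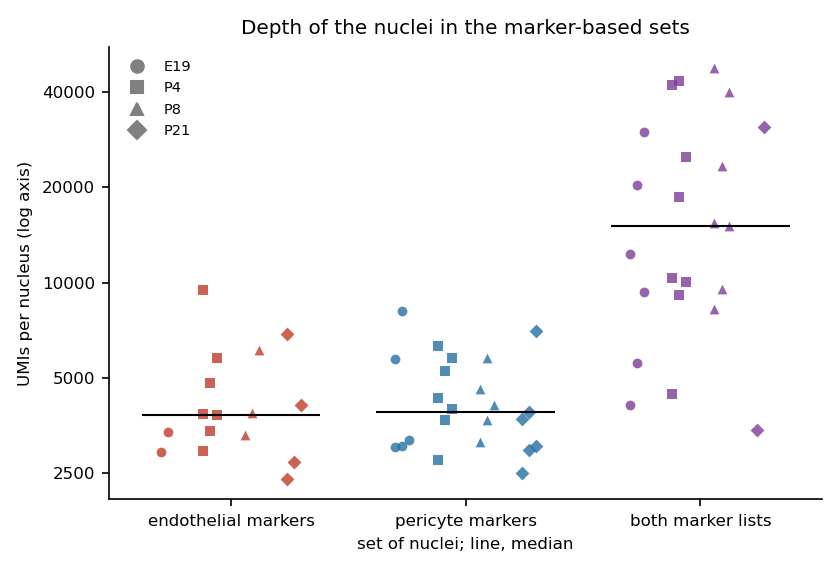
UMIs per nucleus on a log axis for the 3 marker sets, 1 point per nucleus, shaped by stage, with a line at the median of each set. The medians are 3825, 3900 and 15132 UMIs, and the points above 9455 UMIs are all double-marker nuclei.

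All 3 sets occurred at every stage. Endothelial-marker, pericyte-marker and double-marker nuclei numbered 2, 5 and 6 in the E19 library, 7, 7 and 8 in the P4 library, 3, 5 and 7 in the P8 library, and 4, 6 and 2 in the P21 library. Outside the class, nuclei that met the endothelial criterion alone numbered 24 of 9662, those that met both 3, and those that met the pericyte criterion alone 129. Of the latter, 70 were among the 323 vascular leptomeningeal nuclei and 32 among the 939 astrocytes. Markers of non-vascular classes were also present. The astrocyte list of 8 genes stood at 560 CPM in endothelial-marker, 2631 CPM in pericyte-marker and 919 CPM in double-marker nuclei, beside 5643 CPM in astrocytes. The leptomeningeal list stood at 439 CPM in the class and 9054 CPM in the leptomeningeal class. In the class the neuron list (Slc17a6, Slc17a7, Rbfox3, Snap25 and Syt1) stood at 166 CPM and the microglial list at 130 CPM. In all other nuclei together the leptomeningeal, neuron and microglial lists stood at 451, 2292 and 65.2 CPM. By a criterion of 2 markers of another class at 2 UMIs each, 30 of the 62 nuclei carried such RNA. They were 3 endothelial-marker, 9 pericyte-marker and 18 double-marker nuclei. The criterion counts UMIs, so deeper nuclei meet it more easily, and the part of depth was not tested. Leaving these nuclei out also leaves out 18 of the 23 double-marker nuclei. Without these 30 nuclei the levels of 17 of the 25 leading genes described below moved outside their counting interval, among them Cldn5 from 2267 to 1170 CPM, Rgs5 from 1258 to 884 CPM, Aplnr from 421 to 206 CPM and Itga1 from 737 to 1059 CPM. The part of such RNA in the other results was not tested.

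Of all E19 nuclei, 0.503% carried the label (exact Clopper-Pearson 95% interval 0.268 to 0.858). The share was 0.922% in the P4 library (0.579 to 1.39), 0.599% in the P8 library (0.336 to 0.986) and 0.534% in the P21 library (0.276 to 0.930). P4 was the highest, and all 4 intervals overlapped. Among non-neuronal nuclei the shares were 3.67%, 4.98%, 2.73% and 1.45%, with P21 the lowest. Here the intervals of P4 (3.15 to 7.44) and P21 (0.752 to 2.52) did not overlap. These intervals cover counting error only. Median percent of mitochondrial UMIs was 1.86 at P4 and between 0.65 and 0.86 at the other stages.

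Cldn5 separated the class from all other nuclei most widely of any gene with at least 100 CPM. It held 297, 626, 408 and 47 UMIs at E19, P4, P8 and P21, or 2677, 2732, 2101 and 637 CPM, so that the P21 library stood below the other 3. Over all stages this was 2267 CPM (Poisson 95% interval 2148 to 2389) against 1.61 CPM in other nuclei, a log2 ratio of 8.42 with 5 CPM added to both sides, the scale of all ratios below. At least 1 Cldn5 UMI was found in 38 of 62 nuclei (61.3%), beside 1.71% of neurons, which should lack it. Median depths were 5026 UMIs in the class and 11598 and 8805 UMIs in excitatory and inhibitory neurons. After every nucleus was thinned to 2300 UMIs the shares were 58.1% and 0.556%. Weighting each nucleus alike gave Cldn5 1132 CPM, since the deep double-marker nuclei held most of its UMIs.

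Flt1 was the most abundant of the leading genes. Its 435, 483, 587 and 202 UMIs corresponded to 3920, 2108, 3023 and 2739 CPM, highest at E19 and lowest at P4, with no order by age. The class level was 2808 CPM against 3.81 CPM elsewhere (log2 ratio 8.32), and Flt1 was detected in 45 nuclei (72.6%), beside 1.55% of neurons. Vascular leptomeningeal nuclei were the other class with appreciable Flt1, at 117 CPM. Rgs5 followed these 2 by ratio, at 1316, 1261, 1416 and 746 CPM in the 4 libraries, again lowest at P21. Its 1258 CPM compared with 2.32 CPM in other nuclei, a log2 ratio of 7.43.

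The remaining leading genes fell into a few functional groups. Receptors of the vessel wall were Adgrl4, Kdr, Eng, Cd93, Adgrf5, Ptprb, Aplnr and Tek. Transcription factors were Ets1, Mecom, Fli1, Erg and Epas1, with the zinc finger gene Zfp366. Carriers were Slco1c1, which transports thyroid hormone, and Slc38a5, a glutamine carrier. Abcc9, a regulatory subunit of the potassium channel of pericytes, Itga1, an integrin, and the unannotated transcript Gm14005 completed the group with Rgs5, Cyyr1, Igfbp7 and Rasgrp3. Log2 ratios ranged from 8.42 to 5.92 over the 25, and 24 of them were higher than in other nuclei in all 4 libraries. The exception, Aplnr, the receptor for apelin, had 16, 144, 96 and 0 UMIs. Because the class was defined on these counts, the ratios describe it and were not tested. For background, 26.6% of the 9234 genes with at least 20 CPM in the class or elsewhere were at least 2-fold higher in the class and 18.9% at least 2-fold lower, with a median log2 ratio of 0.33. Median-of-ratios scaling would lower every ratio by 0.32 and give 20.1% higher and 22.7% lower, so that 47.0% in place of 58.4% of these genes would be higher. No list median below changes its direction under that scaling.

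By marker set, these 25 genes were not uniform. Rgs5, Abcc9, Itga1 and Gm14005 were far higher in pericyte-marker than in endothelial-marker nuclei. Abcc9 stood at 14.4 CPM in endothelial-marker, 1416 CPM in pericyte-marker and 410 CPM in double-marker nuclei, and Itga1 at 172, 1667 and 615 CPM in the same order. Mecom, a transcription factor with 3245, 10.0 and 2416 CPM, showed the opposite order, as did Cyyr1 with 1106, 0 and 969 CPM. Igfbp7, an insulin-like growth factor binding protein, and Epas1, a hypoxia-inducible factor, were shared, the first at 603, 552 and 1108 CPM. Flt1, Kdr, Ptprb, Tek, Erg, Adgrl4, Cldn5, Rgs5 and Abcc9 are themselves markers that formed the sets, so their division between sets follows from the choice.

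**Figure D3:**
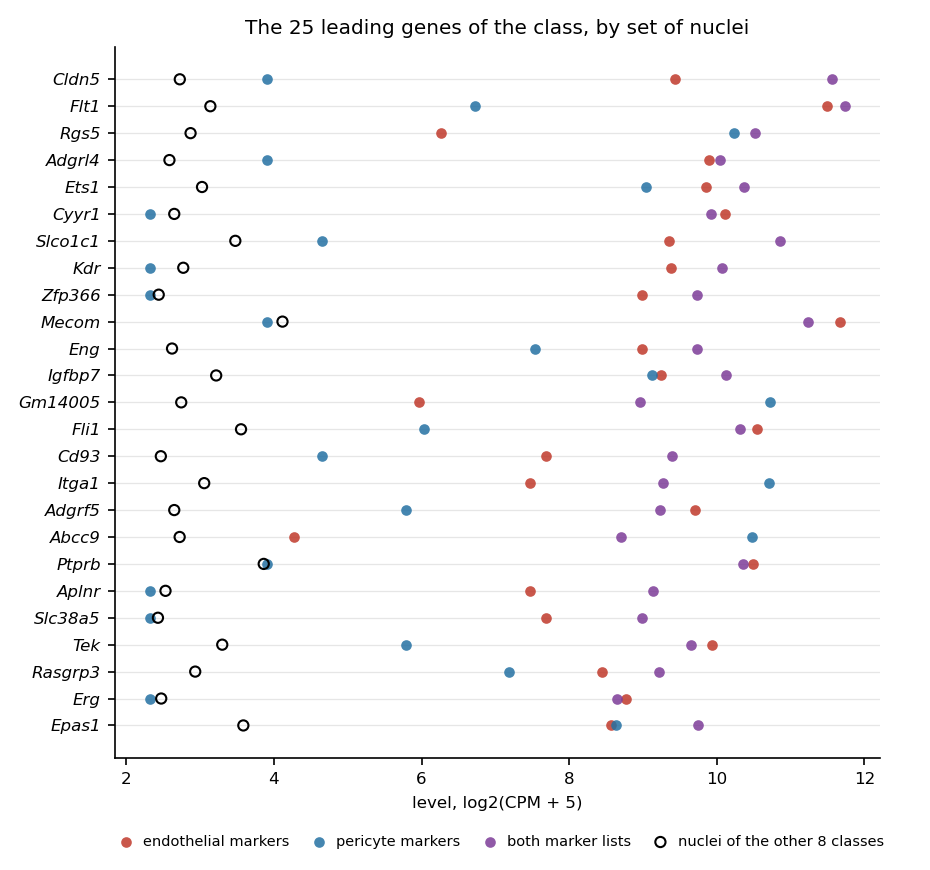
Level of the 25 leading genes, as log2(CPM + 5), in endothelial-marker (red), pericyte-marker (blue) and double-marker (purple) nuclei and in the nuclei of the other 8 classes together (open circles). Rgs5, Gm14005, Itga1 and Abcc9 have the blue point to the right of the red one, and Ets1, Igfbp7 and Epas1 are high in all 3 sets.

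Genes outside both marker lists were ranked by their ratio between the single-program sets. Among genes with at least 20 UMIs in 1 of the single-program sets, those with the largest ratio of endothelial-marker over pericyte-marker nuclei were Cyyr1, Mecom, Prkch, Hmcn1, Adgrg6, Tll1, Lhfpl2, Slco1a4, Zfp366, Arhgap28, Abcb1a and Clec14a. Prkch, a protein kinase C, had 818 CPM in endothelial-marker nuclei and no UMI in pericyte-marker nuclei, at least 27.2-fold higher when 3 counts over the set are taken as the floor. In the reverse direction stood Ednra, Adap2, Pde8b, Slc38a11, Angpt1, Slc16a12, Carmn, Il34, Mrvi1, Plekhg3, Daam2 and Adamts16. Ednra, the endothelin A receptor, had 944 CPM in pericyte-marker nuclei, 196 CPM in double-marker nuclei and no UMI in endothelial-marker nuclei, at least 21.9-fold lower in the last set. Carmn, a long noncoding RNA of mural cells, had 522, 80 and 0 CPM in that order. These genes were picked for that ratio on the same nuclei, so they describe the sets and support nothing about the division. Of 4144 genes with enough UMIs, 7.92% were at least 4-fold higher in endothelial-marker nuclei and 7.92% at least 4-fold higher in pericyte-marker nuclei.

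Genes that define endothelium stood apart from the background as a list. All 25 members (Pecam1, Cdh5, Emcn, Esam, Robo4 and others beside those above) were at least 2-fold higher in the class, with a median log2 ratio of 5.74. The median was 5.84, 5.67, 5.50 and 5.12 at E19, P4, P8 and P21 (SD 0.31 over 4 libraries). Pecam1, an adhesion receptor at endothelial contacts, stood at 658, 428, 536 and 203 CPM in the 4 libraries, and Emcn, a sialomucin, at 424, 266, 258 and 597 CPM. Of the 20 members with enough UMIs, 17 were at least 4-fold higher in endothelial-marker than in pericyte-marker nuclei and none the reverse, although the 10 markers that formed the sets are all members of this list.

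Carriers and receptors of the blood-brain barrier were mostly higher in the class. Of 33 listed genes 32 were found under their listed name, 29 were at least 2-fold higher in the class, 2 were at least 2-fold lower, and the median log2 ratio was 3.73 (SD 0.33 over 4 libraries). Slc2a1, the glucose carrier of the barrier, held 96, 121, 82 and 40 UMIs, or 865, 528, 422 and 542 CPM, highest at E19. Slc7a1, a carrier of cationic amino acids, reached 1748 CPM over the class, against 26.7 CPM elsewhere. Abcb1a, the efflux pump P-glycoprotein, stood at 351, 345, 464 and 488 CPM in the 4 libraries, but 32 of its 36 UMIs at P21 lay in 1 double-marker nucleus, without which P21 was the lowest library at 93.8 CPM. Abcg2, another efflux pump, stood at 207, 266, 206 and 325 CPM. Slco1c1 stood at 1036, 1292, 1823 and 1274 CPM and Tfrc, the transferrin receptor, at 442, 1196, 1040 and 258 CPM. Tfrc was higher at P4 and P8 than at either end. The P21 nucleus that held most Abcb1a UMIs also held 68 of the 94 Slco1c1 and 26 of the 40 Slc2a1 UMIs at P21. Without it P21 was the lowest library for both, at 610 CPM for Slco1c1 and 328 CPM for Slc2a1. Both lower members were efflux pumps of the ABCC family, Abcc1 at 16.4 CPM against 49.7 and Abcc5 at 93.8 CPM against 200 CPM elsewhere.

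Barrier carriers were found in endothelial-marker and double-marker nuclei and hardly in pericyte-marker nuclei. Of the 25 list members with enough UMIs, 18 were at least 4-fold higher in endothelial-marker than in pericyte-marker nuclei (background 7.92%) and none was 4-fold higher in the reverse direction. Abcb1a had 431, 0 and 488 CPM in endothelial-marker, pericyte-marker and double-marker nuclei, at least 14.3-fold higher in the first than in the second. Slc16a1, a carrier of lactate and ketone bodies, had 316, 0 and 889 CPM, and Slc7a5, a carrier of large neutral amino acids, 416, 10.0 and 656 CPM. Mfsd2a, which carries lipids and limits vesicle transport, had 86.2, 0 and 488 CPM. Slc22a8, Insr, Abcc5, Slc3a2, Atp10a and Car4 were the members with between 90.4 and 271 CPM in pericyte-marker nuclei and less than a 4-fold difference. Elsewhere in the tissue, Abcb1a reached 229 CPM in epithelial nuclei and Slco1a4 110 CPM in leptomeningeal nuclei.

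**Figure D4:**
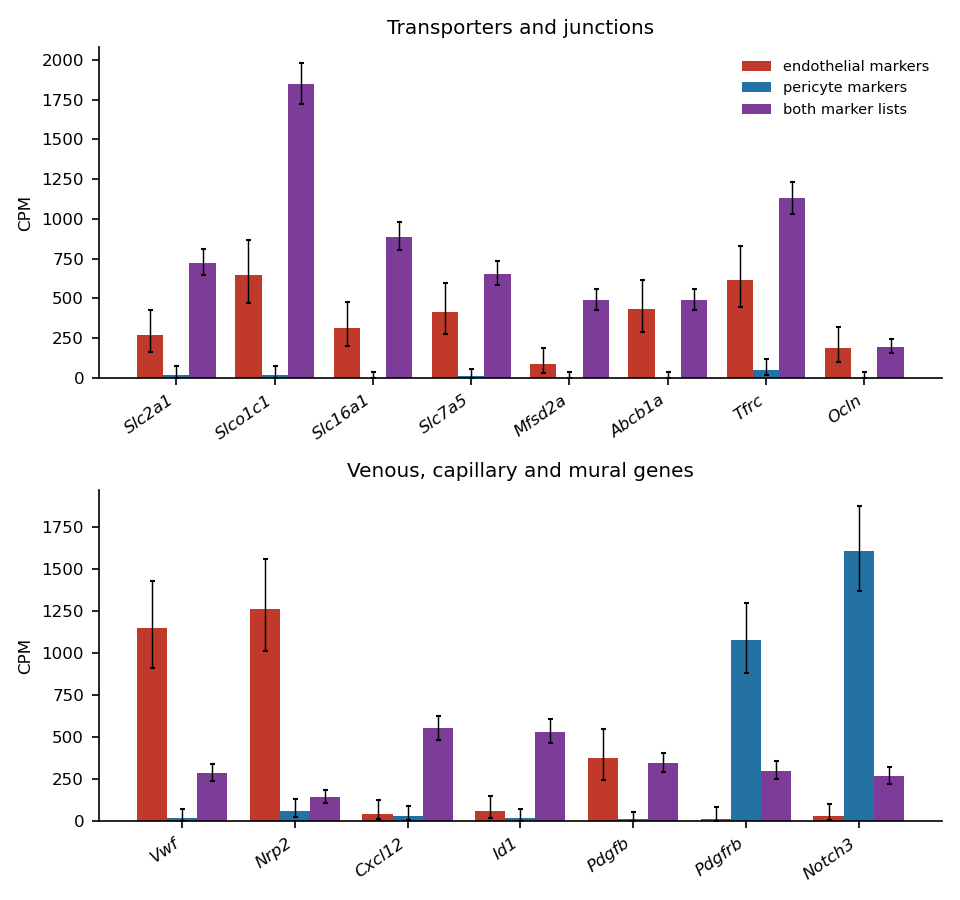
Level in CPM of 15 genes in endothelial-marker (red), pericyte-marker (blue) and double-marker (purple) nuclei, all stages together, with exact Poisson 95% intervals that cover counting error only. Carriers in the upper panel have low or no blue bars, Vwf and Nrp2 have the red bar highest, Cxcl12 and Id1 the purple bar, and Pdgfrb (a marker that formed the sets) and Notch3 (likewise) the blue bar.

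Junction genes were more mixed. Of 20 listed genes 14 were at least 2-fold higher in the class and 2 at least 2-fold lower, with a median log2 ratio of 2.43 (SD 0.62). Ocln, which encodes occludin, stood at 117, 148, 201 and 176 CPM in the 4 libraries, Lsr, a tricellular junction protein, at 225, 266, 216 and 94.9 CPM, and Cdh5, the endothelial cadherin, at 279, 244, 211 and 108 CPM. Tjp1, a scaffold of tight junctions that neurons also express, stood at 1092 CPM in the class and 448 CPM elsewhere. The lower members were Cgn, with 1 UMI, and Cdh13, a cadherin at 186 CPM against 1007 CPM. Caveola genes were low but higher than elsewhere in 9 of 11 cases, among them Cav1 at 150 CPM and Cavin1 at 107 CPM. Plvap, the diaphragm protein of leaky vessels, had 4 UMIs, all in 1 nucleus of P4, or 6.58 CPM against 6.71 CPM in other nuclei.

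The Wnt pathway was represented in the class by its receptors and targets and not by its ligands. Neither Wnt7a nor Wnt7b, the ligands for barrier formation, had a UMI in the class, which allows up to 4.93 CPM, and Ndp had 1. Wnt7a was highest in astrocytes, at 59.6 CPM. Among receptors, Fzd6 stood at 321 CPM against 3.04 elsewhere, Fzd4 at 39.5 CPM against 1.49, and the co-receptor Lrp5 at 110 CPM against 6.02. Adgra2, which with Reck confers the response to Wnt7, stood at 132 CPM against 8.83, while Reck was at 37.8 CPM against 51.6. Target genes were higher, with Apcdd1 at 433, 563, 479 and 217 CPM in the 4 libraries, Nkd1 at 478, 362, 567 and 108 CPM, and Foxq1 at 180, 179, 201 and 81.3 CPM. All 3 were lowest at P21. Over the list of 23, 15 were at least 2-fold higher and 1, Wnt7a, at least 2-fold lower, with a median log2 ratio of 2.09 (SD 0.34).

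Receptors for VEGF and the angiopoietins were high in the class, and their ligands differed among themselves. Vegfa had 3 UMIs in the class (4.93 CPM) against 36.8 CPM in other nuclei and 159 CPM in astrocytes. Kdr, the main signalling receptor for VEGF, had 130, 175, 198 and 14 UMIs, or 1172, 764, 1020 and 190 CPM, with P21 below the other libraries. Flt4, a receptor for the related factor VEGF-C, stood at 85.5 CPM and Vegfc itself at 199 CPM. The angiopoietin receptor Tek stood at 487, 707, 845 and 569 CPM, and its relative Tie1 at 252, 253, 227 and 190 CPM. Angpt1, the ligand that mural cells supply to Tek, had 572 CPM in pericyte-marker nuclei, 27.4 CPM in double-marker nuclei and no UMI in endothelial-marker nuclei, but 68.1% of its 69 UMIs lay in 1 nucleus. In this list 11 of 16 members were at least 2-fold higher and 1, Vegfa, lower, with a median log2 ratio of 1.89.

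Genes of platelet-derived growth factor and Notch signalling differed in level between the sets. Pdgfb, the platelet-derived growth factor of endothelium, had 373 CPM in endothelial-marker, 10.0 CPM in pericyte-marker and 344 CPM in double-marker nuclei. Its receptor Pdgfrb had 14.4, 1075 and 299 CPM, an order that follows from its use as a marker. Dll4, a Notch ligand of endothelium, had 57.4, 10.0 and 100 CPM, and Notch4, an endothelial Notch receptor, 57.4, 10.0 and 178 CPM. Heyl, a Notch target of mural cells, had no UMI, 221 CPM and 36.5 CPM. Notch1 was shared, at 129, 80.3 and 255 CPM. Of the 14 Notch pathway genes 11 were at least 2-fold higher in the class and none lower, with a median log2 ratio of 2.78. With endothelial-marker nuclei alone in place of the class the median was 0.65. Of the 7 members with enough UMIs, none was at least 4-fold higher in endothelial-marker nuclei and 2, Notch3 (a marker) and Heyl, in pericyte-marker nuclei (background 7.92% each way).

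The transforming growth factor and bone morphogenetic protein list had 14 of 18 members at least 2-fold higher in the class and none lower (median log2 ratio 2.20, SD 0.12). Acvrl1, a receptor for circulating bone morphogenetic protein, stood at 207, 196, 160 and 163 CPM in the 4 libraries, and Tgfbr2 at 252, 375, 355 and 285 CPM. Id1, a target of these receptors, stood at 559, 345, 422 and 217 CPM. Bmpr1a, a type I receptor, was the member with the clearest excess in pericyte-marker nuclei, at 201 CPM against no UMI in endothelial-marker nuclei.

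Transcription factors of endothelium formed the most uniform list after the defining genes. Of 32 members 31 were at least 2-fold higher in the class and none lower, with a median log2 ratio of 2.87 (SD 0.18). The ETS factors Ets1, Fli1 and Erg stood at 1138, 1097 and 336 CPM, against 3.15, 6.75 and 0.554 CPM elsewhere. Sox17, an arterial factor, stood at 216, 131, 129 and 149 CPM, and Lmo2, a partner of GATA factors, at 207, 266, 314 and 108 CPM. Klf2, a factor induced by blood flow, stood at 234, 323, 309 and 190 CPM. Foxf2, known from both brain pericytes and endothelium, had 28.7 CPM in endothelial-marker nuclei, 112 CPM in double-marker nuclei and no UMI in pericyte-marker nuclei. Nr2f2, a venous factor, had its highest level in pericyte-marker nuclei, at 643 CPM, beside 302 CPM in endothelial-marker and 191 CPM in double-marker nuclei.

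Vascular G protein coupled receptors and their partners were higher in 16 of 20 cases and lower in none (median log2 ratio 2.31). Ramp2, the partner of the adrenomedullin receptor Calcrl, had 45, 146, 85 and 4 UMIs, or 406, 637, 438 and 54.2 CPM. Guidance genes were divided. Plxnd1, a semaphorin receptor, stood at 220 CPM against 1.94 and Robo4, the endothelial Roundabout receptor, at 161 CPM against 0.0792, while 4 of 17 members, Robo1, Robo2, Slit2 and Slit3, were at least 2-fold lower than in the neuron-rich remainder. Robo1 stood at 105 CPM against 1407 CPM.

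Basement membrane genes and their integrin receptors were mostly higher in the class. Of 20 members 19 were at least 2-fold higher in the class, with a median log2 ratio of 3.78 (SD 0.89), and the ratio of endothelial-marker over pericyte-marker nuclei had a median of -0.25 over the 17 with enough UMIs. Of these 17, 2 (Fn1 and Itga6) were at least 4-fold higher in endothelial-marker nuclei and 2 (Itga1 and Itga4) in pericyte-marker nuclei. The background was 7.92% each way, so with so few members these counts do not set the list apart. Col4a1, a chain of type IV collagen, held 269, 169, 189 and 43 UMIs, or 2424, 738, 973 and 583 CPM, highest at E19. Its partner Col4a2 stood at 1379, 825, 711 and 285 CPM. Lama4, a laminin chain of vessels, had 761, 813 and 891 CPM in endothelial-marker, pericyte-marker and double-marker nuclei. Fn1 (fibronectin) differed, at 560, 100 and 1103 CPM, as did Itga4, an integrin that binds it, at 43.1, 673 and 317 CPM. The summed level of the list was 13401, 8669, 8962 and 5314 CPM from the youngest to the oldest library.

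Some genes that mark segments of the vascular tree differed between endothelial-marker and double-marker nuclei. The endothelial-marker nuclei had the highest levels of Vwf, the clotting factor stored by large-vessel endothelium, at 1149 CPM (95% interval 911 to 1430) against 285 CPM in double-marker nuclei, a 4.03-fold difference. Nrp2, a venous and lymphatic coreceptor, had 1264 against 141 CPM (8.94-fold). Over the venous list of 15 the summed level was 3360 against 1807 CPM, a smaller fold difference than that of Vwf or Nrp2. The excess in these 2 genes therefore does not stand for the whole list. Some capillary genes were higher in the double-marker nuclei. Spock2 had 2074 CPM against 574 CPM in endothelial-marker nuclei, Mfsd2a 488 against 86.2 CPM (5.66-fold), and the chemokine Cxcl12 552 against 43.1 CPM (12.8-fold). The counting intervals of these 5 genes did not overlap between the sets. Other capillary genes were close, with Car4, a carbonic anhydrase, at 100.5 CPM in endothelial-marker and 107 CPM in double-marker nuclei and Ivns1abp at 100.5 and 103 CPM. The summed level of the capillary list of 10 was 2972 and 7118 CPM, of which Spock2 alone supplied 574 and 2074 CPM. The sets also differ in depth, as given above, and the part of depth in this difference was not tested.

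Arterial genes were sparse. Of 15 members 12 were at least 2-fold higher in the class (median log2 ratio 2.87), but Gja5 had no UMI and Gkn3 and Alpl had 1 and 6. With endothelial-marker nuclei alone in place of the class, the median of the arterial list was -0.02. Sema3g had 20 UMIs, all in double-marker nuclei, and Gja4, a connexin, had 182 CPM there and no UMI in endothelial-marker nuclei. Bmx, a kinase of arterial endothelium, had its highest level, 172 CPM, in endothelial-marker nuclei.

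Of the 16 tip cell genes, 12 were at least 2-fold higher in the class and none lower, with a median log2 ratio of 2.77, led by Cd34 at 247 CPM and Pdgfb at 293 CPM. Esm1 and Kcne3 had no UMI, and Apln had 9, 6, 2 and 0 UMIs at E19, P4, P8 and P21. Adm, which encodes adrenomedullin, had 9, 3, 0 and 0 UMIs and Cxcr4 9, 6, 5 and 0. Of the 12 cell cycle genes 11 were at least 2-fold higher and none lower. Mki67 had 2, 28, 13 and 0 UMIs and Top2a 1, 20, 13 and 0, and of Mki67 55.8% lay in 1 nucleus. In the P21 library 11 of 12 cell cycle genes had no UMI in the class, where 0 allows up to 40.7 CPM. The list median over all libraries was 1.95, and it was -0.36 when the other classes, which include the 106 dividing nuclei, were weighted alike. In the list of leukocyte adhesion and antigen presentation genes 11 of 15 were at least 2-fold higher and none lower, with a median log2 ratio of 2.60. The adhesion molecules of inflamed endothelium Sele and Selp had no UMI and Vcam1 had 6, whereas Icam2, which is constitutive, stood at 132 CPM. Among antigen presentation genes, Cd74 had no UMI, and B2m, the light chain of class I molecules, stood at 153, 109, 87.6 and 81.3 CPM.

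Stage patterns are given as a description of 4 libraries. In the comparison of P8 and P21 together with E19 and P4 together, 4.64% of 8851 genes were at least 2-fold higher at the later stages with no overlap of libraries, and 7.15% at least 2-fold lower. The numbers of list members called were small, and for the barrier and defining genes they were near these shares of all genes. Of the 31 barrier genes with enough UMIs 2 were higher late (Slco1a4 and Slc19a3) and 2 lower (Slc3a2 and Slc38a5), none of the 24 defining genes was higher and 1, Icam2, lower, and of the 12 tip cell genes 4 were lower (Apln, Adm, Trp53i11 and Cxcr4). Of the 17 guidance genes 4 were higher late (Sema3g, Sema3c, Robo2 and Ntn4) and none lower, of the 12 cell cycle genes 3 were lower (Cenpe, Bub1b and Tubb5), and of 12 arterial genes 2 were higher (Sema3g and Mgp) and 1 lower (Fbln5). Most of these members had few UMIs, such as Ntn4 with 0, 2, 3 and 11.

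Slco1a4, an organic anion carrier of the barrier, was the vascular gene with the largest late excess. It had 7, 35, 88 and 143 UMIs, or 63.1, 153, 453 and 1939 CPM, so that each library lay above the one before, and the late-over-early log2 ratio was 2.75. In P21, 112 of its 143 UMIs came from 1 double-marker nucleus with 31131 UMIs, which supplied much of the 73762 UMIs of that library and also held 2002 haemoglobin and other erythrocyte UMIs. Without that nucleus the log2 ratio was 1.98. In endothelial-marker nuclei alone, Slco1a4 was found in 0 of 2 nuclei at E19, 0 of 7 at P4, 1 of 3 at P8 and 4 of 4 at P21. No pericyte-marker nucleus held a UMI of it at any stage.

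Several other late genes named by the same rule had most of their UMIs in 1 nucleus. Nfasc had 1, 2, 3 and 38 UMIs, with 79.5% in 1 nucleus, and its log2 ratio of 3.52 was 1.13 without the nucleus. For Opcml the ratio was 2.92 with the nucleus and 0.82 without it, and for Ptprt 2.83 and 1.06. All 3 are cell adhesion or receptor genes of neurons and glia that were lower in the class than elsewhere. Gfap, an astrocyte marker, had 0, 2, 22 and 14 UMIs, and Gpc5, also high in astrocytes, 2, 5, 33 and 4. Sp100, a nuclear body protein, had 2, 5, 15 and 28 UMIs (log2 ratio 2.69, and 2.36 without the nucleus), and was highest in endothelial-marker nuclei, at 273 CPM from 19 of its 50 UMIs. Without nuclei carrying RNA of other classes the ratio was 0.70 for Sp100 and 0.88 for Opcml. Sema3c, a guidance ligand, had 1, 7, 6 and 42 UMIs, or 9.01, 30.6, 30.9 and 569 CPM, and its ratio of 2.69 was 0.33 without the P21 library.

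Mmp9, a protease that cleaves basement membrane, had the largest early excess. It held 33 UMIs at E19 and 7 at P4, or 297 and 30.6 CPM, and none at P8 or P21, where 0 allows up to 15.5 and 40.7 CPM. The UMIs lay in 12 nuclei, all of the pericyte-marker or double-marker sets, and no endothelial-marker nucleus held one. That set had only 2 nuclei at E19 and 7 at P4, where 0 allows up to 478 and 88.2 CPM. These limits lie above the class levels, so the absence in that set cannot be told from low depth. Piezo2, a mechanically gated channel, had 27, 31, 4 and 3 UMIs, or 243, 135, 20.6 and 40.7 CPM, and Plpp1, a lipid phosphatase, 162, 183, 41.2 and 54.2 CPM. Sox11, Ly6h, Hint1, Gap43 and Tubb2b completed the list. Of these, Sox11, Gap43 and Tubb2b are genes of immature neurons, and Tubb2b, at 586, 362, 144 and 27.1 CPM, was spread over 50 nuclei.

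Several carriers peaked in the middle stages. Slc16a1 had 10, 206, 189 and 7 UMIs, or 90.1, 899, 973 and 94.9 CPM, and the counting intervals of P4 and P8 lay above those of E19 and P21. Within double-marker nuclei it was 123, 1202, 1116 and 174 CPM, and in endothelial-marker nuclei it was found in 0 of 2, 3 of 7, 3 of 3 and 1 of 4 nuclei. Slc38a5 peaked at P4, at 198, 751, 175 and 94.9 CPM, and 33.6% of its UMIs lay in 1 nucleus. Its late-over-early log2 ratio of -1.86 was 1.58 without the double-marker nuclei, which held 169 of its 172 UMIs at P4. Aplnr stood at 144, 629, 494 and 0 CPM. Cldn5, Kdr, Mfsd2a, Slc7a5 and Fn1 were lowest at P21, where only 2 of the 12 nuclei were double-marker nuclei, while Flt1, Tek, Ptprb and Abcb1a were not. Without the P21 nucleus of 31131 UMIs, Flt1 (1525 CPM), Tek (469 CPM) and Abcb1a (93.8 CPM) were lowest at P21 as well, and Ptprb (985 CPM) was not.

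**Figure D5:**
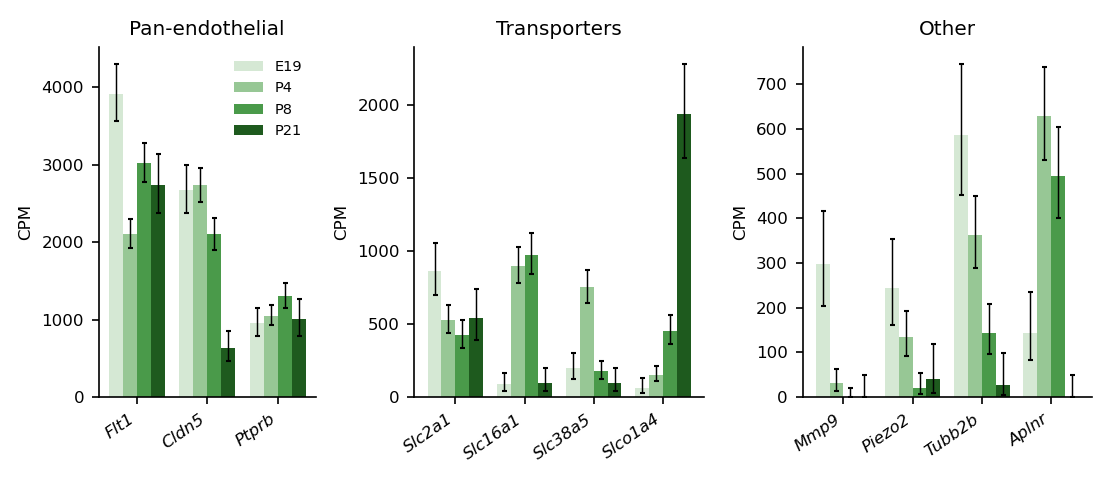
Level in CPM of 11 genes in the class at E19, P4, P8 and P21, 1 library per stage, with exact Poisson 95% intervals that cover counting error only. Flt1 and Ptprb show no order by age, Slco1a4 is higher in each later library, Slc16a1 is high at P4 and P8 only, and Mmp9, Piezo2 and Tubb2b are highest at E19.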

How the data were processed

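Single-nucleus libraries of E19, P4, P8 and P21 superior colliculus were made with the 10x Genomics 3′ v3 chemistry and processed with Cell Ranger 3.0.2, per the labels and the submitters' processing notes. The reference, a pre-mRNA version of mm10, lets intronic reads count towards a gene. The authors deposited raw UMI counts per gene and nucleus, and a table of nuclei with the stage, the class and the percent of mitochondrial UMIs. Not given in the sources used here are filters on nuclei, doublet removal, the annotation release and the use of strand. The deposited class column was used as it stands, with no further filter, and 6 columns of per-nucleus values were not used.

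UMIs were summed over nuclei and scaled to CPM, and ratios are log2 after adding 5 CPM on each side, so that ratios of low genes are understated. Intervals are exact Poisson or Clopper-Pearson at 95%, and a count of 0 was given a limit of 3 counts. All cover counting error only. With 1 library a stage and a class named from the same counts, no test was made. Only the ratio of the class over other nuclei was checked on simulated counts, which had no spread between nuclei. Leading genes were the 25 with the largest ratios at 100 CPM or more. Early and late genes were the 8 with the largest ratio each way at 100 CPM or more, in at least 10 nuclei, with libraries not overlapping; genes for haemoglobins, ribosomal proteins and mitochondrial or sex-linked transcripts were left out. Genes named by marker set were the 12 with the largest ratio each way with at least 20 UMIs in the higher set. Other named genes are members of 18 fixed lists and 11 marker lists; within lists those needed for a sentence are named, and 1 gene is not reported here. Members, lists and rules were chosen with earlier results of these data known, and the marker sets after the values were seen. Alternatives changed the pseudocount, weights, comparator, scaling, thinning, libraries and nuclei. Coordinates are from GENCODE M21 (GRCm38), which held 31011 of 31053 gene identifiers, and promoter windows from RefSeq (GRCm38.p6). Of 401 listed or named genes, 178 overlap a gene on the opposite strand and 101 one on the same strand, so their UMIs can be shared. Python 3.11.15, numpy 2.4.6, scipy 1.17.1, pandas 2.3.3 and matplotlib 3.10.9 were used.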

Additional observations from a re-analysis of the deposited data

How the results depend on the processing

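With 62 nuclei and 1 library a stage, precision is limited by UMIs per gene, and leaving out a library leaves no replicate of that stage. Over 18 lists and 12 alternatives, 135 list medians moved by less than the spread between libraries, 79 by more, and 2 changed sign. Those were the arterial list, at -0.023 with endothelial-marker nuclei alone, and the cell cycle list, at -0.36 with the other classes weighted alike. Without nuclei carrying RNA of other classes the medians of 5 lists moved, to 1.93 for the growth factor and bone morphogenetic protein list, 1.14 for guidance, 2.18 for arterial, 1.45 for venous and 1.69 for adhesion and antigen presentation genes. Of 168 recomputed differences between the single-program sets, 3 moved and none changed sign. They cover the 24 genes picked for the largest ratios between these sets. Their signs could hardly change, so this says nothing about the stability of the division. The sets and every alternative that removes one of them were chosen after seeing the data. No paired analysis was possible because each stage has 1 library and libraries share no replicate number beyond 1. A cause of these shifts was not tested.

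Among non-neuronal nuclei alone the shares were 3.67%, 4.98%, 2.73% and 1.45% at the 4 stages in order, and without nuclei carrying RNA of other classes they were 0.547% at P4, 0.320% at P8 and 0.178% at P21. The median of the defining endothelial list (5.74) was 4.12 with 20 CPM added, 5.39 with each nucleus weighted alike, 5.42 with median-of-ratios scaling, 5.04 without double-marker nuclei and 6.29 with endothelial-marker nuclei alone. For the barrier list (3.73) the values were 2.88 with 20 CPM added, 3.18 with nuclei weighted alike, 3.13 with the other classes weighted alike, 4.75 with members of at least 50 UMIs and 2.70 without double-marker nuclei. For the junction list (2.43) they were 1.74, 1.59, 1.57 and 3.48 under the first 4 of these. For the capillary list (4.76) they were 3.97 with 20 CPM added, 2.44 without double-marker nuclei and 3.58 with endothelial-marker nuclei alone. Leaving out each library in turn kept these 4 medians between 5.64 and 5.76, 3.67 and 3.88, 2.30 and 2.55, and 4.67 and 4.80.

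Of 300 late-over-early log2 ratios, 20 changed sign. Rgs5 was at 0.0083 with median-of-ratios scaling (-0.05 as reported). Without nuclei carrying RNA of other classes the ratio was -0.016 for Ptprt, -0.18 for Slc16a1, 0.59 for Rgs5 and 0.48 for Kdr. Without double-marker nuclei it was -1.02 for Ptprt, 1.27 for Aplnr, 1.58 for Slc38a5, 0.074 for Cldn5, 0.93 for Slc7a5 and 0.24 for Kdr. Leaving out each library in turn gave -2.68 to 2.95 for Slc16a1, -6.57 to 1.28 for Aplnr, -0.41 to 0.48 for Flt1, -0.77 to 0.15 for Rgs5, -1.94 to 0.054 for Slc7a5 and -2.21 to 0.18 for Kdr. The ratios of Slco1a4 (1.83 to 6.62) and Mmp9 (-5.92 to -2.78) kept their sign under all 12 alternatives.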

Other observations

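Outside the vascular lists, 2 nuclei of the P21 library carried contractile smooth muscle genes. One was a pericyte-marker nucleus with 42 UMIs of the 6 smooth muscle markers among its 7037 UMIs, and the other a double-marker nucleus with 19 among 3426. Each held 5 of the 6 markers, and no other nucleus of the class had more than 7 such UMIs. The first held only 5 UMIs of 3 pericyte markers (0.071%) beside 25 leptomeningeal-list UMIs, and met neither criterion at 0.2% of UMIs. It supplied 7037 of the 23123 UMIs of pericyte-marker nuclei at P21, so their levels there include it. The second nucleus held 29 astrocyte-list UMIs and only 5 UMIs of endothelial markers. At 0.2% of UMIs it met the pericyte criterion alone. The P21 library held 35 of the 38 Acta2 UMIs of the class, 29 of them in 1 nucleus (Acta2 encodes smooth muscle actin). In the 2 nuclei the smooth muscle markers took 0.597% and 0.555% of UMIs.

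The double-marker nuclei had some genes at higher levels than either single-program set, and were also the deepest nuclei. Among genes with at least 100 UMIs there, the largest ratios over the higher of the single-program sets were those of Cxcl12, Id1, Tnr, Foxq1, Glul, Mfsd2a, Sparc, Arl4a, Bsg and Fth1. Bsg, a partner of lactate carriers, stood at 3685 CPM in double-marker nuclei, 747 CPM in endothelial-marker nuclei and 90.4 CPM in pericyte-marker nuclei. Glul, which makes glutamine, stood at 337, 14.4 and 50.2 CPM in the same order, and Foxq1 at 230, 28.7 and 30.1 CPM. Tnr, an extracellular matrix gene of oligodendrocyte precursors and perineuronal nets, differs in kind, since 88.4% of its 207 UMIs lay in 1 nucleus. In the opposite direction, endothelial-marker over double-marker nuclei, among genes with at least 20 UMIs in the former, the large ratios included those of Chrm3, Tll1, Pknox2, Adgrg6, Fam155a, Pcdh15, Nrp2, St3gal4 and Pgm5. Tll1, a metalloprotease, had 589 CPM in endothelial-marker nuclei, from 41 UMIs, and 3 UMIs in double-marker nuclei. Chrm3, a muscarinic acetylcholine receptor, had 50 UMIs in the class, 62% of them in 1 nucleus and 48 of them at P4. Chrm3, Fam155a and Pcdh15 were lower in the class than in all other nuclei, with log2 ratios of -3.01, -4.06 and -4.04.

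The P21 nucleus with the most UMIs held 10 endothelial markers and 6 pericyte markers together with 102 UMIs of the oligodendrocyte list and 2002 of the erythrocyte list, 6.43% of its UMIs. The next highest nucleus for the erythrocyte list had 70 UMIs.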
